A study of Mus musculus with 88 samples.

Results

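The 10 heat shock and chaperone genes described here were Hspa1a, Hspa1b, Hspa8, Hspa5, Hsp90aa1, Hsp90ab1, Hspb1, Dnajb1, Hsph1 and Hspd1. They were chosen by name, as the entries of 3 brain region tables whose Ensembl identifiers carry these symbols in the GRCm38 annotation. The rule used no measured value, but earlier results of these data were known when the genes were chosen. All 10 were found in each region, among 18946 genes of the medial prefrontal cortex (mPFC), 48795 of the bed nucleus of the stria terminalis (BNST) and 19559 of the ventral hippocampus (vHPC). All 10 were also among the 17515 BNST genes that were tested, a gene being tested if 6 or more libraries gave it at least 1 CPM (reads of a gene scaled to a common library total).

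Heat shock proteins are molecular chaperones: they bind unfolded or partly folded proteins, hold or refold them, and pass those beyond repair to degradation. HSP70 proteins work in cycles that DNAJ (HSP40) partners start and that HSP110 proteins reset, HSP90 proteins finish the folding of client proteins such as kinases and steroid receptors, and small heat shock proteins hold unfolded proteins without using ATP. Some of these genes are expressed at all times, while others are switched on by heat shock factors binding to their promoters, and brain tissue expresses the constitutive forms at high levels.

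The mice were males of 2 inbred strains, C57BL/6Crl (B6) and DBA/2Crl (D2), aged 8 weeks when tissue was taken. Chronic social defeat stress (CSDS) meant repeated defeat by an aggressive CD1 mouse, and tissue was collected 6 to 8 days after the last defeat. Defeated mice were called resilient or susceptible by how much they avoided an unfamiliar mouse in a social interaction test, and control mice (Con) were never defeated. The 88 libraries comprised mPFC from B6 Con (n = 6), resilient (Res, n = 6) and susceptible (Sus, n = 6) and from D2 Con (n = 6) and Sus (n = 8) mice, BNST from B6 Con, Res and Sus (n = 5 each) and D2 Con (n = 5), Res (n = 3) and Sus (n = 5) mice, and vHPC from B6 Con (n = 6), Res (n = 8) and Sus (n = 3) and D2 Con (n = 6) and Sus (n = 5) mice. Each library was made from whole dissected tissue of 1 mouse, so all cell types of the region contributed, and fewer cells of a type and less RNA per cell cannot be told apart in any of the values below.

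BNST libraries held 11825757 to 25793910 counts in genes (median 15273698). The mPFC and vHPC tables held log2 CPM values without depths. Marker genes followed the labelled regions only in part: the summed CPM of 6 genes of GABAergic BNST neurons was 1010 to 2020 in BNST libraries and 331 to 820 in the mPFC, where 1 of the 6, Six3, was not listed, while 6 genes of cortical excitatory neurons reached 960 CPM in a BNST B6 Res library against 128 to 509 in the other 5 BNST groups. In the vHPC, of 10 sets in which libraries were prepared together, 0 mixed B6 Con with B6 defeated mice and 1 mixed D2 Con with D2 defeated mice, so CSDS and preparation set cannot be told apart there beyond what a covariate can separate. The regions were prepared with different kits, so levels of the regions were set side by side without a test.

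Hsp90ab1 was the highest of the 10 genes in every region, and Hspb1 or the Hspa1a and Hspa1b pair the lowest. Per kilobase of exon and over all mice of a region, the level of Hsp90ab1 (the constitutive cytosolic HSP90) was 8.59 ± 0.12 on the log2 CPM scale in the mPFC (SD, n = 32), 7.75 ± 0.36 in the BNST (n = 28) and 8.37 ± 0.30 in the vHPC (n = 28). In the mPFC it was followed by Hspa5 (6.30 ± 0.20, the HSP70 of the endoplasmic reticulum), Hsp90aa1 (5.82 ± 0.16, the inducible cytosolic HSP90) and Hsph1 (5.43 ± 0.17, an HSP110). Below them came Hspa8 (5.25 ± 1.0, the constitutive cytosolic HSP70) and Hspd1 (4.78 ± 0.11, the mitochondrial chaperonin). The SD of Hspa8 overlapped those of Hsph1 and Hspd1, but it spans both strains. Before scaling by length, Hspa8 was 8.32 ± 0.06 log2 CPM in B6 Con and 6.28 ± 0.14 in D2 Con mice. The overlap therefore does not give the order of these genes within a strain. Dnajb1 (3.59 ± 0.14, an inducible HSP40) came next, and Hspa1b (0.89 ± 0.31) and Hspa1a (0.71 ± 0.19), the inducible cytosolic HSP70 pair, overlapped above Hspb1 (-0.40 ± 0.53, the small heat shock protein HSP27).

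In the BNST, Hspa8 ranked next after Hsp90ab1, at 6.33 ± 0.54 per kilobase on the log2 CPM scale, and overlapped Hsp90aa1 (5.97 ± 0.37). Hspa5, Hspd1 and Hsph1 lay together at 4.56 to 4.76, and the lowest 3 genes there were Hspb1, Hspa1a (-0.06 ± 0.65) and Hspa1b (-0.66 ± 1.16). In the vHPC the order was Hsp90ab1, Hspa5 (6.02 ± 0.23), Hsp90aa1 (5.63 ± 0.06) and Hspa8 (5.56 ± 1.43), the last overlapping its neighbours on both sides. The large SD of Hspa8 in the mPFC and vHPC came with the strain difference described next, so these orders do not give its place within a strain.

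**Figure D1:**
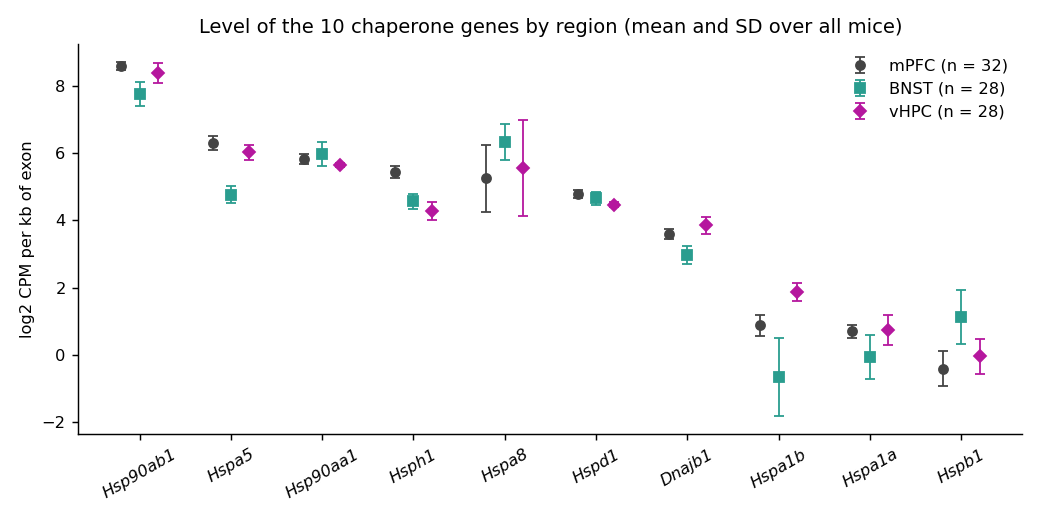
Level of each of the 10 genes in the mPFC (n = 32 mice), BNST (n = 28) and vHPC (n = 28), as log2 CPM per kilobase of exon (vertical axis), with points for the mean and bars for the SD over all mice of a region. Hsp90ab1 lies highest in each region (8.59, 7.75 and 8.37), and Hspa1a, Hspa1b and Hspb1 lie lowest.

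Hspa8 (ENSMUSG00000015656, chr9:40800984-40810087, plus strand, GRCm38) encodes HSC70, the constitutive cytosolic HSP70 that also uncoats clathrin vesicles. A processed pseudogene on chromosome 5, Gm15459 (chr5:5781615-5783555, minus strand), is close to identical with it. Over the 1941 bases of Gm15459, aligned from base 371 of the 2394-base transcript Hspa8-201 (GENCODE M21), only 5 bases differed (99.7% identity), and the longest identical run was 672 bases. Counted from base 1 of Hspa8-201, with the Hspa8 base first, the differences were G484A, C784T, C919T, G1592A and C1810T. A read that covers none of these positions fits both places, so the window around the first of them is shown beside a stretch without any, with the differing base in capitals.

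Hspa8 bases 439 to 528: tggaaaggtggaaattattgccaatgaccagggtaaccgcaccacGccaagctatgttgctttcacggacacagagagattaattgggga
Gm15459 bases 69 to 158: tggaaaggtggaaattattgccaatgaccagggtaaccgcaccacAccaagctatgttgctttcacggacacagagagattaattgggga
Hspa8 and Gm15459, bases 920 to 1009 of Hspa8-201: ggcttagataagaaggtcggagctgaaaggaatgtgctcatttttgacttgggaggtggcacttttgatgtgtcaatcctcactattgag

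Hspa8 was lower in D2 than in B6 mice in every region where it passed the test, and by the most in the vHPC. In the mPFC, Hspa8 in log2 CPM was 8.23 to 8.38 in B6 Con (median 8.34) and 6.09 to 6.47 in D2 Con (median 6.29) mice. Among Sus mice it was 7.89 to 8.30 in B6 (median 8.17) and 6.11 to 6.44 in D2 (median 6.20). No D2 mouse of these groups reached the lowest B6 mouse. The difference was 4.1-fold in Con (log2 fold change -2.04 ± 0.07, SE, adjusted p = 6.16e-20, limma) and 3.69-fold in Sus mice (-1.88 ± 0.06, adjusted p = 5.48e-20).

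In the vHPC, Hspa8 was 9.28 to 9.50 in B6 Con (median 9.42) and 6.05 to 6.51 in D2 Con (median 6.33), an 8.4-fold difference (-3.07 ± 0.09, adjusted p = 1.88e-19, limma). Sus mice of the vHPC held 7.71, 7.99 and 7.98 in B6 and 5.68, 5.56, 5.52, 5.68 and 5.96 in D2, a 4.63-fold difference (-2.21 ± 0.12, adjusted p = 1.13e-13). The strains did not overlap in either comparison. Within library preparation sets that held both strains, all D2 mice lay below all B6 mice in 5 of 5 sets of the mPFC, 1 of 2 of the BNST and 5 of 5 of the vHPC.

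In the BNST the strain difference passed in Sus but not in Con mice. Hspa8 in log2 CPM was 8.13, 8.32, 8.91, 9.14 and 8.44 in B6 Con and 8.29, 7.89, 8.18, 8.05 and 8.29 in D2 Con mice, which overlapped (-0.49 ± 0.17, adjusted p = 0.155, edgeR quasi-likelihood test). It was 8.94, 8.84, 9.21, 9.04 and 9.25 in B6 Sus and 8.04, 7.84, 8.00, 7.53 and 7.75 in D2 Sus mice, with no overlap and a 2.34-fold difference (-1.23 ± 0.17, adjusted p = 2.17e-05). The test of whether the effect of susceptibility differed between the strains was not passed (-0.73, adjusted p = 0.19).

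The pseudogene moved the opposite way. In the mPFC, Gm15459 was 4.72 ± 0.11 log2 CPM in B6 Sus (SD, n = 6) and 7.22 ± 0.15 in D2 Sus mice (n = 8), a difference of 2.5 ± 0.08 (SE, adjusted p = 5.11e-21, limma), and in Con mice the difference was 2.43 ± 0.08 (adjusted p = 6.16e-20). In the BNST it was 2.34 ± 0.52 in B6 Con (n = 5) and 6.10 ± 0.24 in D2 Con mice (n = 5), a difference of 3.72 ± 0.27 (adjusted p = 4.42e-10, edgeR). Of the CPM assigned to Hspa8 and Gm15459 together, Gm15459 held 6.74% to 8.44% in mPFC B6 Con mice and 60.3% to 68.7% in mPFC D2 Con mice. In the BNST its share was 1.07% to 1.46% in B6 Con and 15.9% to 24.6% in D2 Con mice. The gene and its pseudogene lie at different places of a reference genome made from a B6 strain, and whether reads of D2 Hspa8 were placed on the pseudogene was not tested.

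Adding each gene's values to those of its copies, an alternative chosen after seeing the data, reduced the strain difference of Hspa8. Copies were summed if they held at least 10% of the gene's own 90-base stretches. The strain difference of Hspa8 was then -0.56 ± 0.06 in mPFC Con (SE, adjusted p = 5.78e-08), -0.37 ± 0.06 in mPFC Sus (adjusted p = 2.05e-05), -0.19 ± 0.17 in BNST Con (adjusted p = 0.637) and -1.01 ± 0.17 in BNST Sus mice (adjusted p = 0.000304). The vHPC table did not list Gm15459, and the sum there, with the other copies listed, was -2.68 ± 0.08 in Con mice (adjusted p = 3.21e-19). A noncoding gene on the opposite strand of the Gm15459 locus, Gm26825, was -6.98 log2 CPM in vHPC B6 Con and 1.94 in vHPC D2 Con mice on average. Its lowest vHPC value, -8.23, is below the CPM of 1 read at any usual depth, so such low values of the batch-adjusted table do not stand for reads.

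**Figure D2:**
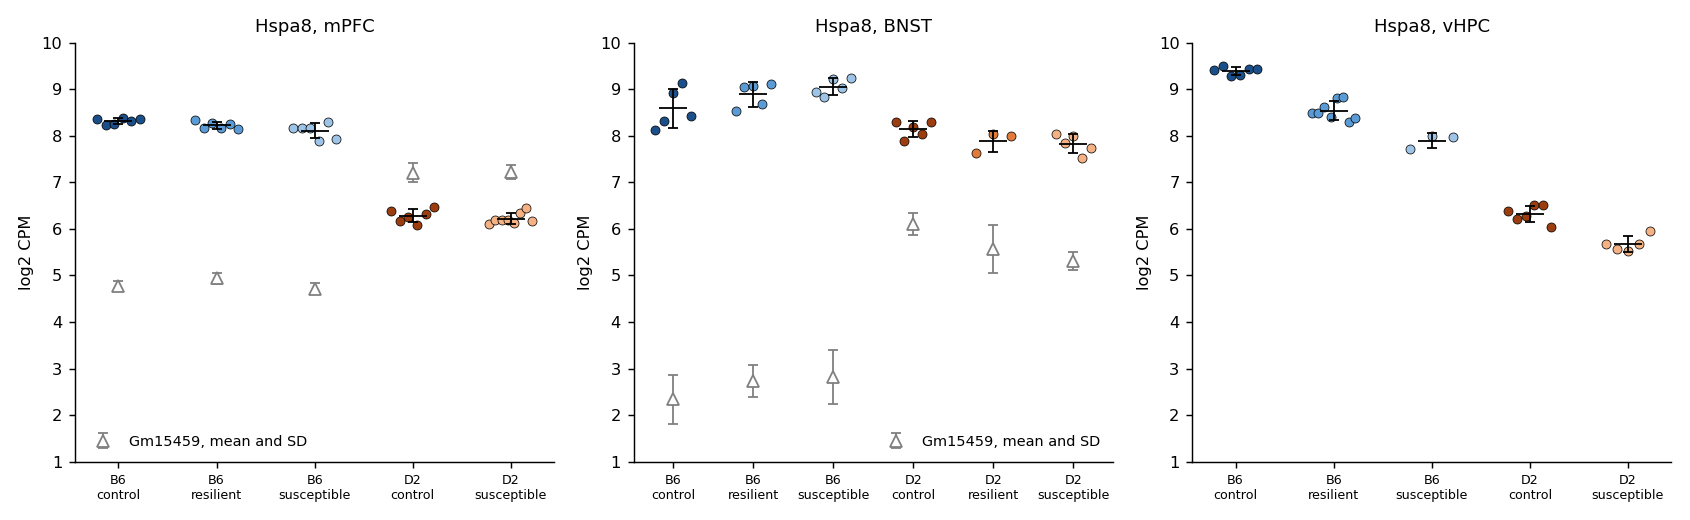
Hspa8 in log2 CPM (vertical axis) for every mouse, by group within the mPFC, BNST and vHPC, with bars for the mean and SD of each group and open triangles for the mean and SD of the pseudogene Gm15459 in the mPFC and BNST. D2 mice lie below B6 mice in the mPFC and vHPC, while the triangles lie higher in D2 than in B6 groups.

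CSDS groups differed in Hspa8 in the vHPC. Against 9.39 ± 0.09 log2 CPM in B6 Con mice (SD, n = 6), Hspa8 fell in Res mice to 8.54 ± 0.20 (n = 8; 8.30 to 8.84), 1.81-fold lower (-0.85 ± 0.09, SE, adjusted p = 1.41e-07, limma), and in Sus mice to 7.89 ± 0.16 (n = 3), 2.84-fold lower (-1.50 ± 0.12, adjusted p = 4.54e-10). The 3 B6 groups did not overlap, and Sus lay below Res mice by 0.65 ± 0.11 (adjusted p = 0.000976). The Res and Sus comparisons share the same 6 control mice. In D2 mice Hspa8 went from 6.32 ± 0.18 in Con (n = 6) to 5.68 ± 0.17 in Sus mice (n = 5), a 1.56-fold fall (-0.64 ± 0.10, adjusted p = 0.000157) without overlap. The fall was smaller in D2 than in B6 mice (interaction 0.86 ± 0.15, adjusted p = 0.00513), and without B6 Sus replicate 1 that test was not passed (0.77, adjusted p = 0.0556).

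With library preparation set as a covariate (limma), the difference of Hspa8 from Con was -1.74 in vHPC B6 Res (adjusted p = 0.00696) and -2.16 in B6 Sus mice (adjusted p = 0.000291). The D2 value was -0.09 (adjusted p = 0.978), the difference of Sus from Res mice -0.42 (adjusted p = 0.129) and the interaction 2.07 (adjusted p = 0.142). As 0 of 10 sets held both B6 Con and B6 defeated mice, the B6 values against Con were reached only indirectly, through other groups sharing sets. They therefore cannot separate set from defeat. Summed with its listed copies, the D2 value was -0.13 ± 0.09 (adjusted p = 0.473). Against Con mice the value of Gm26825 was higher by 2.83 ± 0.30 in B6 Res (SE, adjusted p = 1.93e-07, limma) and 4.23 ± 0.39 in B6 Sus mice (adjusted p = 1.14e-08). In D2 Sus mice it rose by 2.40 ± 0.33 (adjusted p = 4.23e-05). Its B6 means were very low, -6.98 log2 CPM in Con, -4.15 in Res and -2.75 in Sus mice. As such low values need not stand for reads, the B6 differences cannot be read as a rise in expression. The part of Gm26825 and its locus in the fall of Hspa8 was not tested. Oligodendrocyte markers moved with these groups: all 6 genes of the list passed as lower in vHPC B6 Sus mice (40.64% of all genes passed against Con). The summed CPM of the 6 was 3220 to 3640 in B6 Con, 2360 to 3570 in B6 Res, 1910 to 2190 in B6 Sus, 1300 to 2020 in D2 Con and 1120 to 1460 in D2 Sus mice. In the mPFC the same 6 genes summed to 1520 to 2920 CPM in B6 Con, 1100 to 1680 in B6 Sus and 1010 to 1480 in D2 Con mice. In the vHPC, choroid plexus and ependyma markers summed to 53.7 to 2110 CPM in B6 Con and 30.9 to 89.6 in B6 Sus mice. Their part in the values of Hspa8 and of the other 9 genes was not tested.

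In the mPFC, Hspa8 was 8.32 ± 0.06 log2 CPM in B6 Con (SD), 8.23 ± 0.07 in Res and 8.11 ± 0.16 in Sus mice (n = 6 each), and the difference of Sus from Con mice did not pass (-0.21 ± 0.07, adjusted p = 0.081, limma). In the BNST, B6 Res mice held 8.54, 9.05, 9.08, 8.68 and 9.10 and D2 Res mice 7.63, 8.04 and 8.00, and the B6 Sus group differed from B6 Con mice by 0.43 ± 0.17 (adjusted p = 0.709, edgeR). The BNST value had the opposite sign to that of the vHPC, and regions were not tested against each other.

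Counted over all 10 genes, the strain comparisons gave the most calls. In vHPC Con mice, 8 of 10 passed at an adjusted p under 0.05, 4 higher and 4 lower in D2, where 59.32% of all tested genes passed. In mPFC Con mice 3 of 10 passed, all lower in D2, against 27.79% of all genes. In BNST Con mice 0 of 10 passed, against 2.51% of all genes (edgeR), and 0 of 10 by DESeq2. There 3 of 10 had an unadjusted p under 0.05 (edgeR), against 13.4% of all genes. In Sus mice the count was 4 of 10 in the vHPC against 32.67% of all genes, 2 of 10 in the mPFC against 17.51%, and 2 of 10 in the BNST against 5.18%, where DESeq2 called 4 of 10. With 10 genes each call is 10 percentage points, and nothing particular to these genes was read from their shares. The median log2 fold change of D2 against B6 Con over the 10 genes was -0.17 for the mPFC (0.002 over all genes), 0.02 for the BNST (0.038) and 0.05 for the vHPC (0.007).

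The CSDS comparisons gave calls only in the vHPC. There 7 of 10 genes passed in B6 Sus against Con mice (3 higher, 4 lower; 40.64% of all genes), 3 of 10 in B6 Res against Con (2 higher, 1 lower; 10.84%), 4 of 10 in Sus against Res (1 higher, 3 lower; 27.63%), 2 of 10 in D2 Sus against Con (1 higher, 1 lower; 4.28%) and 1 of 10 in the interaction of strain and susceptibility (0.782%). The 7 genes called in vHPC B6 Sus mice each had the same sign in D2 against B6 Con mice of that region. Both comparisons use the same B6 Con mice, and the reason for the shared signs was not tested. In the mPFC, limma called 0 of 10 in B6 Sus against Con, where 2.22% of all genes passed, and 0 of 10 in Sus against Res (2.02%). In these comparisons 3 and 4 of 10 had an unadjusted p under 0.05, against 18.2% and 19.6% of all genes. Without B6 Sus replicate 1 of the mPFC, Hsp90ab1 passed in both, a count of 1 of 10. Limma called 0 of 10 in mPFC B6 Res against Con, D2 Sus against Con and the interaction, where 0% of all genes passed. The unadjusted counts there were 0, 0 and 1 of 10, against 3.86%, 3.87% and 9.32% of all genes.

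In the BNST, edgeR called 0 of 10 in each of 6 comparisons of CSDS groups and in the interaction, with 0.00571% of all genes in B6 Sus against Res and 0% in each of the others. Against Con, the unadjusted counts were 0 for B6 Res (1.87% of all genes), 2 for B6 Sus (6.37%), 3 for D2 Res (5.44%) and 1 for D2 Sus (6.03%). They were 1 for B6 Sus against Res (7.55%), 0 for D2 Sus against Res (1.31%) and 3 for the interaction (11.4%). DESeq2 called 1 of 10 in the interaction, Hsp90aa1, and 0 of 10 in the other 6.

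**Figure D3:**
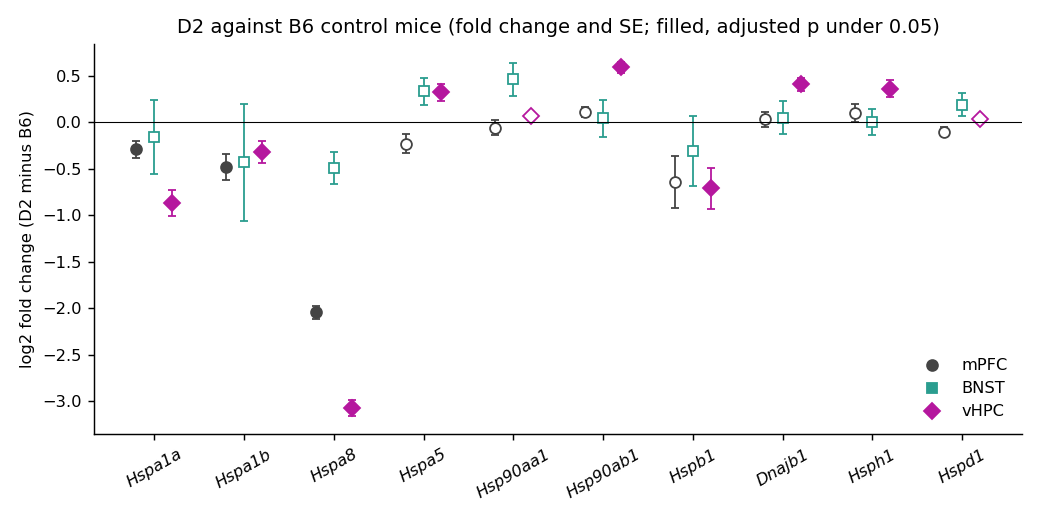
Log2 fold change of D2 against B6 control mice for each of the 10 genes (vertical axis) in the mPFC (6 and 6 mice), BNST (5 and 5) and vHPC (6 and 6), with bars for the SE and filled points for an adjusted p under 0.05. Hspa8 lies farthest below 0 in the mPFC (-2.04) and vHPC (-3.07), and Hsp90ab1 lies at 0.59 in the vHPC.

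Hspa1a (ENSMUSG00000091971, chr17:34969190-34972156) and Hspa1b (ENSMUSG00000090877, chr17:34956436-34959238), both of 1 exon on the minus strand, encode nearly the same inducible HSP70. They shared 58.8% and 52.3% of their 90-base stretches with other transcripts, so the split of reads between them is uncertain. Their promoters are shown because the pair also shares the sequence before its start sites: over 250 bases, 3 differed (98.8% identity). The capitals mark a match to GAANNTTC, the core of the heat shock element to which heat shock factors bind, 104 bases before the start in each. The sequences are from RefSeq on GRCm38.p6, written on the gene's own strand.

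Hspa1a chr17:34972157-34972406: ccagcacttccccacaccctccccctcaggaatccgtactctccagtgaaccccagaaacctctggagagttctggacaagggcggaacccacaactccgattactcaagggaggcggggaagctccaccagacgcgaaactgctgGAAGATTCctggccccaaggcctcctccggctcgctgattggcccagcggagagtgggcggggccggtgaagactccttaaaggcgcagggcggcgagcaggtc
Hspa1b chr17:34959239-34959488: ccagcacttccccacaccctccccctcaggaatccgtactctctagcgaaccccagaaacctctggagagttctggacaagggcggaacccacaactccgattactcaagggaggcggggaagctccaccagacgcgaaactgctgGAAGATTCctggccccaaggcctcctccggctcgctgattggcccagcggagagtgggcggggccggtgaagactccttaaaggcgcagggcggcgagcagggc

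On both strands, GAANNTTC occurred in 6.69% of 32851 mouse promoters of this length, and 12.8% held it or TTCNNGAA, the same core in the other phase. Of the members, Hspa1a, Hspa1b, Hspb1 and Hspd1 held GAANNTTC in a promoter, and Hspd1 and Hsph1 held TTCNNGAA. The Dnajb1 and Hspa5 promoters held neither. No promoter sequence was available for Hspa8, Hsp90aa1 and Hsp90ab1, so these genes were not searched. Each match is a description of the letters in this window.

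Hspa1a and Hspa1b were lower in D2 Con than in B6 Con mice in the mPFC and vHPC. In the mPFC, Hspa1a was 2.38 ± 0.21 log2 CPM in B6 Con and 2.09 ± 0.18 in D2 Con mice (SD, n = 6 each), lower by 0.29 ± 0.09 (SE, adjusted p = 0.0119, limma). Hspa1b was 2.58 ± 0.27 in B6 Con and 2.11 ± 0.31 in D2 Con mice, a difference of -0.48 ± 0.14 (adjusted p = 0.0103), and the groups overlapped for both genes. With only the B6 and D2 Con mice fitted, the mPFC call of Hspa1a was lost (adjusted p = 0.0697). In the vHPC, Hspa1a was 2.32 to 3.08 in B6 Con (median 2.82) and 1.56 to 2.40 in D2 Con mice (median 1.8), a difference of -0.87 ± 0.14 (adjusted p = 1.07e-05). Hspa1b differed there by -0.32 ± 0.12 (adjusted p = 0.0253), a call lost without B6 Con replicate 2 or 5 or D2 Con replicate 4, 5 or 6 (adjusted p up to 0.0711). Summed as a pair, they differed by -0.39 ± 0.10 in the mPFC (adjusted p = 0.00256) and -0.50 ± 0.10 in the vHPC (adjusted p = 0.000166).

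Both fell in vHPC B6 Sus mice. Hspa1a was 2.76 ± 0.29 log2 CPM in Con (SD, n = 6), 2.62 ± 0.20 in Res (n = 8) and 2.127, 1.909 and 2.440 in Sus mice, a difference of Sus from Con of -0.60 ± 0.17 (SE, adjusted p = 0.00827, limma) and from Res of -0.46 ± 0.17 (adjusted p = 0.041). The highest Sus mouse lay above the lowest Con mouse. Hspa1b was 3.19, 3.24 and 2.87 in Sus mice against 3.2 to 3.77 in Con, a difference of -0.39 ± 0.15 (adjusted p = 0.0405), and -0.43 ± 0.14 from Res mice (adjusted p = 0.0285).

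These calls rested on few mice. For Hspa1a, the difference from Con was lost without Sus replicate 2 (-0.47, adjusted p = 0.0759), and that from Res without any of Sus replicates 1 and 2 or Res replicates 1, 2, 3, 5 and 6 (adjusted p up to 0.231). For Hspa1b, the difference from Con was lost without any of the 3 Sus mice or Con replicates 1, 2, 4 and 5 (adjusted p up to 0.216), and that from Res without any of the 3 Sus mice (adjusted p up to 0.165). With library set as a covariate the vHPC calls of Hspa1a and Hspa1b were lost (adjusted p from 0.0535 to 0.382, limma). For Hspa1a the differences were then -1.31 from Con and -0.42 from Res in B6 Sus mice and -1.63 in D2 against B6 Con, and for Hspa1b -0.94, -0.41 and -0.87. As 0 of 10 sets held both B6 Con and B6 defeated mice, those of B6 Sus from Con cannot separate set from defeat.

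In the BNST the pair was read at low counts, 20 to 119 for Hspa1a and 5 to 107 for Hspa1b per library. Group SDs of Hspa1b reached 1.62 on the log2 CPM scale, from 0.47 upward. D2 Res mice (n = 3) lay below all D2 Con mice in Hspa1b, at -0.79 to 0.04 against 0.30 to 2.66 (-1.69 ± 0.81, unadjusted p = 0.0461, edgeR), and this did not pass the adjustment over all genes.

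Hspa5 (ENSMUSG00000026864, chr2:34771970-34777547, plus strand) encodes BiP, the HSP70 of the endoplasmic reticulum and the sensor partner of the unfolded protein response. Its promoter is shown for the endoplasmic reticulum stress element in capitals, CCAAT and CCACG with 9 bases between them, which 37 of 32851 promoters (0.113%) held.

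Hspa5 chr2:34771840-34772089: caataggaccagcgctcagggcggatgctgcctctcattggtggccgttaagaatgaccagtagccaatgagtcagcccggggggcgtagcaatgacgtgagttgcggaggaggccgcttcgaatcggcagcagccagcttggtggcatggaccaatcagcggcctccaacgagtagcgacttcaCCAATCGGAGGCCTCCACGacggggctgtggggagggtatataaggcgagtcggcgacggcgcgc

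Hspa5 was higher in D2 than in B6 mice in the vHPC. It was 7.88 ± 0.20 log2 CPM in B6 Con and 8.20 ± 0.14 in D2 Con mice (SD, n = 6 each), higher by 0.32 ± 0.09 (SE, adjusted p = 0.00289, limma). In Sus mice it was 7.88, 8.02 and 7.88 in B6 and 8.40 ± 0.10 in D2 (n = 5), with no overlap (0.47 ± 0.11, adjusted p = 0.0016). With library set as a covariate the values were 0.14 (adjusted p = 0.854) and 0.68 (adjusted p = 0.132). In the mPFC the sign was the other way in Con mice (-0.23, adjusted p = 0.111), and no CSDS comparison of Hspa5 passed in any region.

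The cytosolic HSP90 genes differed from each other. Hsp90ab1 (ENSMUSG00000023944, chr17:45567775-45573271, minus strand), the constitutive form, was higher in D2 mice of the vHPC and in D2 Sus mice of the mPFC. In the vHPC it was 9.56 to 9.66 log2 CPM in B6 Con and 10.03 to 10.28 in D2 Con mice (n = 6 each), higher by 0.59 ± 0.06 (SE, adjusted p = 3.67e-09, limma) with no overlap. In Sus mice it was 9.839, 10.123 and 9.936 in B6 and 10.411, 10.331, 10.333, 10.407 and 10.424 in D2, also without overlap (0.42 ± 0.07, adjusted p = 0.00011). In the mPFC, Hsp90ab1 was 10.02 ± 0.11 in B6 Sus (SD, n = 6) and 10.23 ± 0.06 in D2 Sus mice (n = 8), which overlapped (0.22 ± 0.05, adjusted p = 0.00131). With library set as a covariate the vHPC calls were lost, at differences of 0.46 in Con (adjusted p = 0.273) and 0.47 in Sus mice (adjusted p = 0.142).

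Within B6 mice of the vHPC, Hsp90ab1 rose in both defeated groups. The increase over Con was 0.19 ± 0.06 in Res (SE, adjusted p = 0.0261, limma; 9.63 to 9.96) and 0.37 ± 0.07 in Sus mice (adjusted p = 0.000339), and no Sus mouse lay as low as the highest Con mouse. Both comparisons used the same Con mice. In D2 mice the value was 0.19 ± 0.06 and did not pass (adjusted p = 0.0834), though Sus and Con mice did not overlap. The Res call was lost without Con replicate 1, 3 or 6 or Res replicate 8 (adjusted p up to 0.0569). With library set as a covariate the values were 0.05 in Res (adjusted p = 1.0) and 0.24 in Sus mice (adjusted p = 0.664).

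In the BNST, Hsp90ab1 was 9.45, 9.45, 9.89, 9.62 and 9.82 in B6 Sus and 9.34, 8.91, 9.28, 8.76 and 8.82 in D2 Sus mice. These groups did not overlap, and the difference of -0.62 ± 0.20 did not pass (adjusted p = 0.0635, edgeR), while DESeq2 called it. The sign was opposite to that in the mPFC and vHPC.

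**Figure D4:**
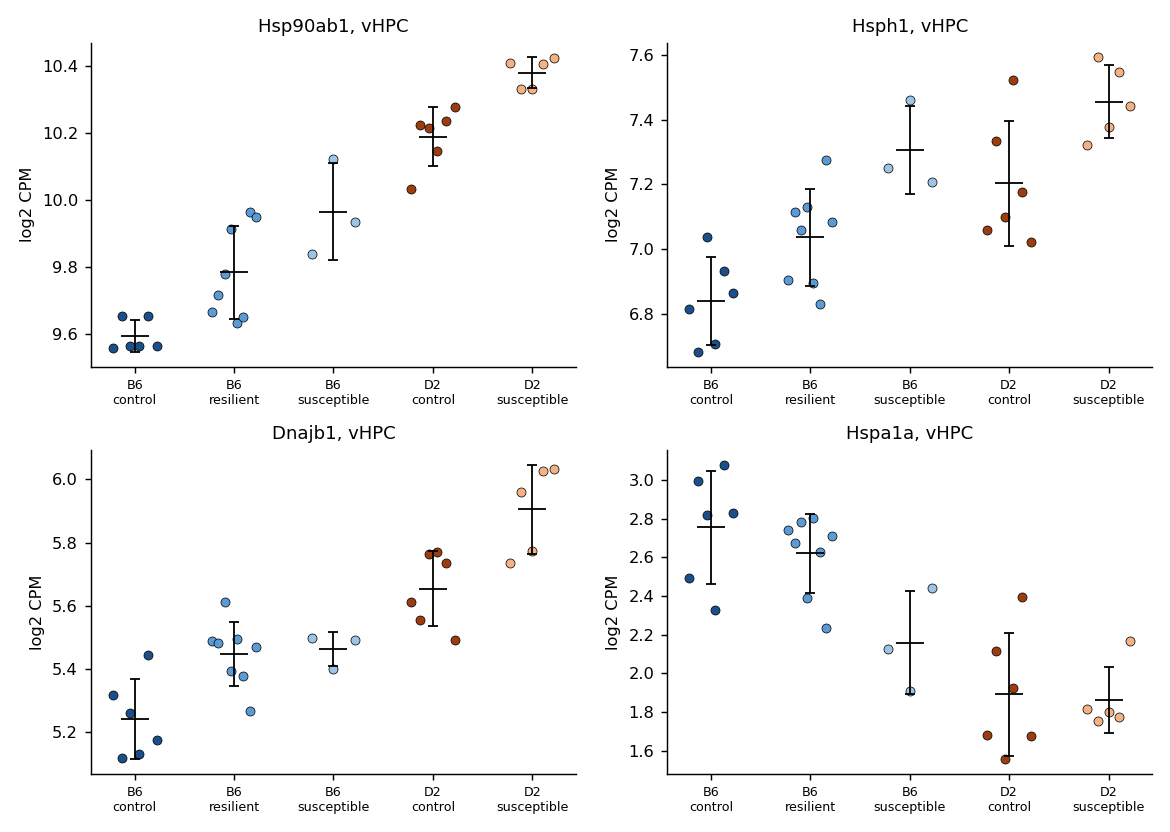
Hsp90ab1, Hsph1, Dnajb1 and Hspa1a in the vHPC, in log2 CPM (vertical axis), for every mouse of the 5 groups, with bars for the mean and SD. Hsp90ab1 lies at 9.56 to 9.66 in B6 Con and 10.03 to 10.28 in D2 Con mice, and the B6 Sus mice (n = 3) lie above B6 Con mice in Hsp90ab1 and Hsph1.

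Hsp90aa1 (ENSMUSG00000021270, chr12:110690605-110702728, minus strand), the stress-inducible form, passed a test in the BNST only. It was 8.110, 8.322, 7.758, 8.407 and 8.645 log2 CPM in B6 Sus and 7.857, 7.593, 7.791, 7.141 and 7.543 in D2 Sus mice, 1.59-fold lower in D2 (-0.67 ± 0.18, SE, adjusted p = 0.0293, edgeR), and the lowest B6 mouse lay among the D2 mice. The call was lost without B6 Sus replicate 4 or 5 or D2 Sus replicate 2, 4 or 5 (adjusted p up to 0.11) and with library sizes taken without TMM factors (-0.22, adjusted p = 0.306), a scaling under which the median of all genes in this comparison was 0.487. Oligodendrocyte markers summed to 5150 to 10900 CPM in the B6 Sus and 2050 to 6100 in the D2 Sus mice of this comparison. Of the markers, 3 of 6 were lower in D2, where 5.18% of all genes passed, and their part in the comparison was not tested. Of the 90-base stretches of Hsp90aa1, 40.1% were shared with other transcripts, mainly the pseudogene Gm12346. In B6 Con mice Gm12346 averaged 2.6 log2 CPM in the BNST, 7.29 in the mPFC and 6.7 in the vHPC, beside 7.78, 7.85 and 7.54 for Hsp90aa1, so the split of reads between them is uncertain mainly in the mPFC and vHPC.

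Hsp90aa1 moved in opposite directions with susceptibility in the strains of the BNST, without passing the test. In B6 Con mice it was 7.54, 7.65, 8.01, 7.91 and 7.80, below most of the B6 Sus values above (0.49 ± 0.18, adjusted p = 0.692, edgeR). In D2 Con mice it was 7.88 to 8.77 (mean 8.22, n = 5), above all D2 Sus values (-0.65 ± 0.18, adjusted p = 0.537). The interaction was -1.14 ± 0.26 (unadjusted p = 0.00017, adjusted p = 0.0745). DESeq2 called it (-1.16, adjusted p = 0.00714), as did the fit with the prefix of the mouse identifiers as a covariate (-1.24, adjusted p = 0.0384) and the fits without B6 Con replicate 4, B6 Sus replicate 3 or D2 Con replicate 5. Only alternatives that called the interaction are listed here. With copies summed, the interaction was not called (-1.16 ± 0.26, SE, adjusted p = 0.071, edgeR). Within the 2 library sets of the BNST, Sus minus Con was 0.82 and 0.13 in B6 and -0.66 and -0.54 in D2 mice. Oligodendrocyte markers summed to 2530 to 7470 CPM in BNST B6 Con and 3410 to 11200 in BNST D2 Con mice. In the same interaction 5 of 6 had an unadjusted p under 0.05, against 11.4% of all genes, and the part of these markers in it was not tested.

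In the vHPC Hsp90aa1 hardly varied, with group means of 7.54 to 7.67 log2 CPM and group SDs of 0.02 to 0.05. D2 and B6 Sus mice did not overlap there, but neither strain comparison passed (in Con mice 0.07, adjusted p = 0.0606, limma).

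**Figure D5:**
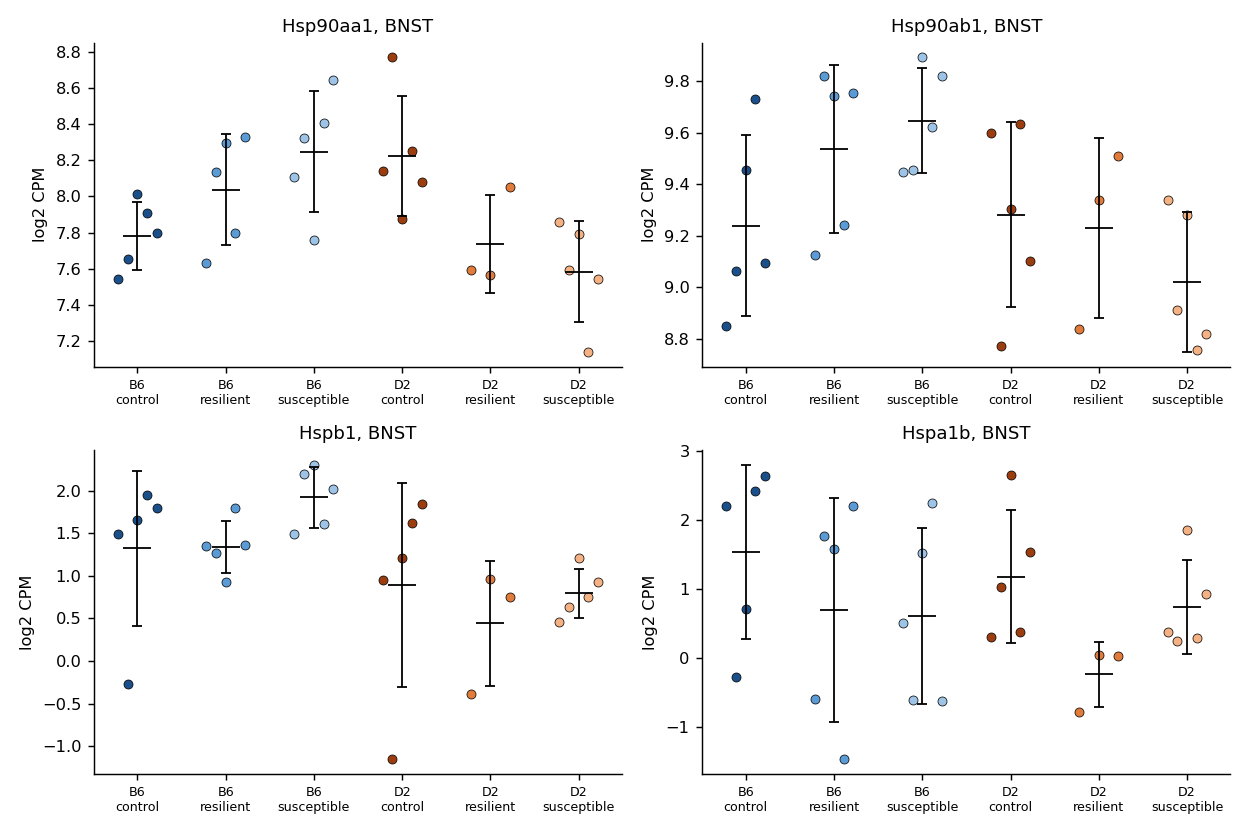
Hsp90aa1, Hsp90ab1, Hspb1 and Hspa1b in the BNST, in log2 CPM scaled by TMM factors (vertical axis), for every mouse of the 6 groups, with bars for the mean and SD. In D2 mice all 5 Sus values of Hsp90aa1 (7.141 to 7.857) lie below all 5 Con values (7.878 to 8.769).

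The HSP70 partners rose in B6 Sus mice of the vHPC. Hsph1 (ENSMUSG00000029657, chr5:149614287-149636376, minus strand), a nucleotide exchange factor of HSP70, was 6.68 to 7.04 log2 CPM in B6 Con (median 6.84) and 7.252, 7.462 and 7.207 in B6 Sus mice, without overlap (0.47 ± 0.10, SE, adjusted p = 0.00116, limma). Res mice lay between, at 6.83 to 7.28 (median 7.07), and Sus lay above Res mice by 0.27 ± 0.10 (adjusted p = 0.0457), a call lost without any of the 3 Sus mice or Res replicates 1, 2, 3, 5 and 6 (adjusted p up to 0.254). D2 Con mice, at 7.02 to 7.52, lay above B6 Con by 0.36 ± 0.09 (adjusted p = 0.000738). In D2 mice the Sus value was 0.25 above Con and did not pass (adjusted p = 0.118).

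Dnajb1 (ENSMUSG00000005483, chr8:83608193-83612653, plus strand), the HSP40 that delivers unfolded proteins to HSP70, was higher in every defeated group of the vHPC. It was 5.24 ± 0.13 log2 CPM in B6 Con (SD, n = 6) and 5.45 ± 0.10 in Res mice (n = 8), higher by 0.21 ± 0.06 (SE, adjusted p = 0.0321, limma). In B6 Sus mice it was 5.5, 5.4 and 5.49 (0.22 ± 0.08, adjusted p = 0.0333). D2 Con mice held 5.49 to 5.77 and D2 Sus mice 5.73, 5.96, 5.77, 6.03 and 6.03 (0.25 ± 0.07, adjusted p = 0.0379). The Con and defeated mice overlapped in each of these. D2 lay above B6 mice without overlap, by 0.41 ± 0.07 in Con (adjusted p = 9.56e-06) and 0.44 ± 0.08 in Sus mice (adjusted p = 0.000223).

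The defeat calls of Dnajb1 depended on single mice. The Res call was lost without Res replicate 1, 2, 3 or 5 or Con replicate 2, 3, 4 or 6 (adjusted p up to 0.0777), the B6 Sus call without any of the 3 Sus mice or Con replicates 2, 4 and 6 (adjusted p up to 0.104), and the D2 Sus call without Con replicate 1, 2 or 6 or Sus replicate 2, 4 or 5 (adjusted p up to 0.123). With library set as a covariate the calls of Dnajb1 and Hsph1 were lost, at adjusted p from 0.056 to 1.0. The difference of Dnajb1 was then 0.10 in B6 Res, 0.16 in B6 Sus and 0.45 in D2 Sus against Con, and 0.33 in Con and 0.62 in Sus mice between strains. That of Hsph1 was 0.53 in B6 Sus against Con, 0.41 against Res and 0.42 between strains in Con mice. Summed CPM of 6 neuronal markers was 2780 to 3120 in vHPC B6 Con and 3230 to 3470 in vHPC B6 Sus mice. Of these, 4 of 6 were higher in Sus, as were 7 of 10 immediate early genes, where 40.64% of all genes passed. The part of these markers in the rise of Hsph1, Dnajb1 and Hsp90ab1 was not tested.

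Hspb1 (ENSMUSG00000004951, chr5:135887919-135889563, plus strand), the small heat shock protein found in vessel walls and glia, was lower in D2 Con mice of the vHPC and in B6 Sus mice there. It was 0.43 ± 0.50 log2 CPM in B6 Con and -0.28 ± 0.39 in D2 Con mice (SD, n = 6 each), a difference of -0.71 ± 0.22 (SE, adjusted p = 0.00866, limma). B6 Sus mice held -0.37, 0.10 and -0.77, and B6 Con mice -0.21 to 1.02, which overlapped (-0.78 ± 0.27, adjusted p = 0.0267). The Sus call was lost without Sus replicate 1 or 3 or Con replicate 1 or 5 (adjusted p up to 0.166), and with library set as a covariate both calls were lost at about the same size, -0.84 in B6 Sus (adjusted p = 0.63) and -0.79 in D2 Con mice (adjusted p = 0.598). Endothelial markers moved with it: their summed CPM was 279 to 313 in B6 Con, 217 to 240 in B6 Sus and 192 to 207 in D2 Con mice. Against B6 Con, 4 of 6 and 6 of 6 genes were lower, where 40.64% and 59.32% of all genes passed. The part of these markers was not tested.

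In the BNST, Hspb1 was 1.49, 2.19, 2.31, 1.61 and 2.01 in B6 Sus and 0.45, 0.64, 1.21, 0.75 and 0.93 in D2 Sus mice, without overlap. The difference of -1.15 ± 0.38 did not pass (adjusted p = 0.079, edgeR), and DESeq2 called it. Counts of Hspb1 in the BNST were 5 to 83 per library. In the mPFC the strain value in Con mice was -0.64 ± 0.28 (adjusted p = 0.0818, limma). Of its 90-base stretches 45% were shared, with the pseudogene Hsp25-ps1.

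Hspd1 (ENSMUSG00000025980, chr1:55077835-55088243, minus strand), the HSP60 chaperonin of the mitochondrial matrix, passed no test in any region. Its vHPC group means were 5.82 to 5.92 log2 CPM with SDs of 0.04 to 0.08, and the strain difference in vHPC Con mice was 0.03 (adjusted p = 0.54, limma). The BNST difference of B6 Sus from Res mice was 0.26 (unadjusted p = 0.049, adjusted p = 0.659, edgeR).

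Of 85 other chaperone genes (81 tested in the mPFC and BNST, 82 in the vHPC), 12 passed as higher and 19 as lower in vHPC B6 Sus against Con mice, where 40.64% of all genes passed, and 0 higher and 1 lower in D2 Sus against Con (4.28%). In B6 Res against Con mice 2 were higher and 2 lower (10.84% of all genes), and in Sus against Res 6 were higher and 24 lower (27.63%). Hspb8, a small heat shock protein partner of the autophagy factor Bag3, fell in all 3 defeated groups of the vHPC: by 0.60 in B6 Res (adjusted p = 1.85e-05, limma), by 1.45 ± 0.11 in B6 Sus (SE, adjusted p = 4.61e-10) and by 0.54 ± 0.10 in D2 Sus mice (adjusted p = 0.000833). Its fall was smaller in D2 than in B6 mice (interaction 0.91 ± 0.15, adjusted p = 0.00328). In vHPC B6 Sus mice Sil1, a nucleotide exchange factor of Hspa5, fell by 0.59 ± 0.11 (adjusted p = 0.000252), while Pdia3, a disulfide isomerase of the endoplasmic reticulum, rose by 0.98 ± 0.21 (adjusted p = 0.00094). For Hspb8, Sil1 and Pdia3 no values with library set as a covariate are given. The limit on telling CSDS from preparation set in the vHPC applies to them too.

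Between strains, 20 of the other chaperone genes were higher and 15 lower in D2 than in B6 Con mice of the vHPC (59.32% of all genes), and 9 higher and 14 lower in the mPFC (27.79%). Hspb8 was lower in D2 by 2.3 ± 0.09 in the vHPC (SE, adjusted p = 3.3e-17, limma) and by 1.39 ± 0.12 in the mPFC (adjusted p = 4.12e-10). The heat shock factor gene Hsf4 was higher in D2 Con mice of both regions, by 0.41 in the vHPC and 0.48 in the mPFC. In the mPFC, Hspa12b, an HSP70 relative of blood vessels, was lower in D2 Con mice (-1.18 ± 0.09, adjusted p = 1.13e-11). In the BNST, 0 passed in Con mice (edgeR; 2.51% of all genes), with 14 at an unadjusted p under 0.05 (13.4% of all genes). In D2 Sus mice 3 were lower (5.18% of all genes), among them Hspb6 (-1.79 ± 0.38, adjusted p = 0.00434) and Hspe1, the partner of Hspd1 (-0.63 ± 0.18, adjusted p = 0.0423).

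In the mPFC, 2 other chaperone genes were higher and 5 lower in B6 Sus against Con mice, where 2.22% of all genes passed. In B6 Res and in D2 Sus against Con, limma called 0 of them and 0% of all genes. At an unadjusted p under 0.05 there were 1 and 2 of them, against 3.86% and 3.87% of all genes. Fkbp5, an HSP90 co-chaperone of the glucocorticoid receptor that glucocorticoids induce, went from 3.09 ± 0.16 log2 CPM in B6 Con to 3.47 ± 0.17 in B6 Sus mice (SD, n = 6 each; 0.38, adjusted p = 0.049). It was 3.5 ± 0.21 in D2 Con and 3.46 ± 0.17 in D2 Sus mice. Unc45a, which assists HSP90, was also higher in B6 Sus mice (0.22, adjusted p = 0.0375), and the DNAJ genes Dnajc8 (-0.19, adjusted p = 0.0186) and Dnajb2 (-0.18, adjusted p = 0.0375) were lower. Cryab, a small heat shock protein of glia, was lower in Sus than in Res mice (-0.51, adjusted p = 0.0314). Oligodendrocyte markers summed to 1600 to 2710 CPM in the mPFC B6 Res and 1100 to 1680 in the B6 Sus mice. Of the markers, 4 of 6 were lower in Sus, where 2.02% of all genes passed. Their part in the values of these other chaperone genes was not tested.

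Across mice within groups, several of the 10 genes varied together. With group means removed, and all p-values from permutations within groups adjusted over the 45 pairs of a region, 18 mPFC pairs, 2 BNST pairs and 9 vHPC pairs passed, all with a positive r. In the mPFC (n = 32 mice), Hspa8 and Hspa5 had a Pearson r of 0.81 (permutation p = 1e-05, the smallest the permutations can give, adjusted p = 0.000225) and a Spearman rho of 0.81, with r 0.76 without the 2 mice farthest from the median and 0.84 with library set means removed. In the BNST (n = 28), Hspa8 and Hsp90ab1 had an r of 0.86 (permutation test, adjusted p = 0.00045; rho 0.80), with 0.83 and 0.85 in the same checks. In the vHPC (n = 28), Hspa8 and Hspd1 had an r of 0.68 (permutation test, adjusted p = 0.00765; rho 0.71), with 0.66 and 0.68. Genes of 1 library share its depth and scaling.

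The gene whose values followed Hspa5 most closely within groups was Sdf2l1, another gene of the endoplasmic reticulum chaperones, in both the mPFC (r = 0.90 over 32 mice) and the vHPC (r = 0.89 over 28 mice). For Hsp90ab1 it was Cdc37, an HSP90 co-chaperone for kinases, in the mPFC (r = 0.82). For Hspd1 it was Dnaja2 in the mPFC (r = 0.76) and Hsp90b1 in the BNST (r = 0.93), and for Hspa8 it was Stk4 in the mPFC (r = 0.83), Gm4691 in the BNST (r = 0.88) and Rplp0 in the vHPC (r = 0.87). These values are a description, since each gene was picked as the highest of all.

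The mPFC and vHPC were both sequenced in 7 mice, each under the same group in both regions. With group means removed, the level of Hspa5 in a mouse's mPFC and vHPC had a Pearson r of 0.92 (exact permutation p = 0.00536, adjusted over the 10 genes 0.0536) and a Spearman rho of 0.86 (exact p = 0.0238, adjusted p = 0.238), with r 0.86 without the 2 mice farthest from the median. None of the 10 genes passed the adjustment. With 7 mice of several groups, the spread between mice shared by their regions could be measured only coarsely.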

How the data were processed

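RNA was sequenced from whole dissected tissue of 88 samples. For the BNST the authors deposited raw counts of reads per gene, made by aligning reads to GRCm38 with STAR, removing PCR duplicates and counting with HTSeq. For the mPFC and vHPC the authors deposited log2 CPM values, made from such counts by filtering low genes, applying voom and adjusting library preparation sets with ComBat, and in the vHPC sequencing sets too. Batch adjustment before deposit can shrink or add differences where sets and groups coincide. Kits differed: ScriptSeq v2 with Ribo-Zero Gold in the mPFC, NuGEN Ovation with InDA-C in the BNST, and Nextera with Ribo-Zero Gold in the vHPC.

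BNST genes reaching 1 CPM in 6 or more libraries were kept, and their counts were scaled by TMM (factors 0.6561 to 1.273), and compared with edgeR 4.0.16 (robust quasi-likelihood test; log2 CPM values used a prior count of 0.5). The mPFC and vHPC values were tested with limma 3.58.1 (robust empirical Bayes) in R 4.3.3. All groups of a region entered 1 fit, giving 23 comparisons, and p-values were adjusted by Benjamini-Hochberg over all genes of a region, with calls at an adjusted p under 0.05. The procedures were tested on simulated data. Correlations used Python 3.11.15, NumPy 2.4.6, SciPy 1.17.1 and pandas 2.3.3, with 100000 permutations within groups, and each correlation test was two-sided. Sequences were read from RefSeq promoters and GENCODE M21 transcripts.

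The members and lists were chosen with earlier results of these data known. All 10 members were described. Of other chaperone genes, at most 2 higher and 2 lower with the largest absolute log2 fold change among those called were named per comparison, and per member and region the gene with the highest Pearson r. Alternatives were library set, sequencing set or mouse identifier prefix as a covariate, only the groups compared, quantile normalization, a mean log2 CPM of at least 1, no filter, no TMM factors, DESeq2 1.42.0, leaving out each mouse, and, added after seeing the data, summing each member with its copies. Library sets came from the study's description of its libraries and entered only as covariates. Replicates were separate mice.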

Additional observations from a re-analysis of the deposited data

Results flagged for a closer look

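Within groups of 4 to 10 mice, 7 of 140 gene and group combinations had 1 mouse far from the others of its group, and chance gives about 1 in 20. All values are in log2 CPM. In mPFC B6 Con replicate 5, Hsp90ab1 was 10.029 beside 10.171 to 10.238 in the other 5 mice, and Hsph1 was 7.996 beside 8.239 to 8.373. In mPFC B6 Res replicate 3, Hspd1 was 6.448 beside 6.208 to 6.290. In BNST B6 Con replicate 2, Hspb1 was -0.273 beside 1.495 to 1.950. Hspd1 was 5.814 in BNST B6 Sus replicate 3 beside 6.239 to 6.338, and 6.531 in BNST D2 Con replicate 2 beside 6.038 to 6.141. In vHPC D2 Sus replicate 5, Hspa1a was 2.165 beside 1.752 to 1.816.

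The effect of susceptibility on Hspa8 in the vHPC differed between the strains, with an interaction of 0.86 on the log2 scale (D2 minus B6).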

How the results depend on the processing

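Over 36 results of called genes and 629 alternative values of them, the direction never reversed, 512 values kept the call and 117 lost it. With library preparation set as a covariate, the number of the 10 genes called in the vHPC was 1 in B6 Res and 1 in B6 Sus against Con, 0 in D2 Sus against Con, 0 in Sus against Res, 1 in each of the strain comparisons and 0 in the interaction. With only the groups compared it was 1 in vHPC B6 Res, 4 in B6 Sus, 1 in D2 Sus, 1 in Sus against Res and 4 in BNST D2 against B6 Sus. With sequencing set as a covariate it was 1 in vHPC B6 Res and 1 in D2 Sus, and D2 Sus also gave 1 with mouse identifier prefix, with quantile normalization and with copies summed. In BNST D2 against B6 Sus, DESeq2 called 4 and the fit without a filter called 1. In the BNST interaction the prefix fit and DESeq2 each called 1. The cause of these changes was not tested.

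Leaving out 1 mouse at a time gave counts of 0 to 1 in mPFC B6 Sus against Con and against Res, 1 to 2 in BNST D2 against B6 Sus, 0 to 1 in the BNST interaction, 1 to 3 in vHPC B6 Res, 4 to 7 in B6 Sus, 1 to 3 in D2 Sus, 1 to 5 in Sus against Res and 0 to 1 in the vHPC interaction. Where 2 mice remained in vHPC B6 Sus, the spread was pooled over all groups. No paired analysis was possible because no mouse is in more than 1 of the groups compared and the replicate numbers follow sample order. The 7 mice with mPFC and vHPC libraries link regions, which were not compared.

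Identifier prefix could not be separated from strain, so that alternative was not run for strain comparisons. Without TMM factors, the median of all BNST genes moved by up to 0.531. BNST counts of Hspa1a, Hspa1b and Hspb1 limit their precision. The mPFC and vHPC depth is unknown.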
